A study of Bos taurus with 4 samples.

Results

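Nicotinic acetylcholine receptors are ion channels of the Cys-loop family that open when acetylcholine or nicotine binds. Each channel is a ring of subunits: alpha subunits carry the principal side of the binding site, and beta and other subunits complete the ring. CHRNA1 and CHRNB1 belong to the receptor of skeletal muscle, CHRNA3 with CHRNB4 and the accessory subunit CHRNA5 to that of autonomic ganglia, CHRNA4 with CHRNB2 to the main receptor of the brain, and CHRNA7 forms channels by itself. Acetylcholine receptors of this kind are also known from mammalian spermatozoa.

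The subunit genes were taken by symbol: every sample probe of the array named CHRNA1 to CHRNA7, CHRNB1, CHRNB2 or CHRNB4. These were 10 genes with 13 probes on 16 spots, of 51282 probes under 32429 names in all. The family was selected on the low-fertile minus high-fertile difference of CHRNA3 in this same experiment, so the values of CHRNA3 are a description here and carry no test. The other 9 genes came in by name alone.

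RNA came from Percoll-selected spermatozoa of Murrah buffalo (Bubalus bubalis) breeding bulls rated as high- or low-fertile. Each group had 2 arrays, and each array held 1 pool with RNA of 2 bulls, so the spread measured is that between pools and single bulls cannot be seen. Cy3-labelled RNA was hybridised to a cattle array (Bos taurus, as the labels give the organism), so bovine probes read buffalo transcripts. All 4 arrays shared a slide, and the groups lay in different rows of it, so position and group cannot be told apart. Processed signals had a 75th percentile between 32.7 and 37.1 on the 4 arrays. The second low-fertile array stood apart: 13033 probes were marked well above background on it, against 23228 to 25642 on the other 3, and the SD of its background-subtracted negative control spots was 109 against 3.95 to 24.8. Of 16 genes on a list of sperm transcripts, 7 had a probe well above background on both arrays of a group.

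The sequences of the pair of CHRNA3 probes and of the bright CHRNA1 probe are given because the results turn on them. Positions are those of the array design, on HGSC Btau_3.1. The first 30 bases of each CHRNA3 probe are shown as the design gives them. Probe 1 lay at chr21:31040750-31040809 and probe 2 at chr21:31040619-31040678 (both on the minus strand), with starts 131 bases apart in the transcript.
CHRNA3 probe 1: cgtatttttctgtgggtttttatcctggtg
CHRNA3 probe 2: tgagggagagggggctcactttttagtttt

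CHRNA1 probe 1 lay at chr2:22741444-22741503. Bases 31 to 60 of it are shown with the reverse complement of probes named for other genes, laid over the same positions. Capitals mark bases that differ from the CHRNA1 probe, which numbered 1, 5 and 6.
CHRNA1 probe 1: ccagtgagtcaactcttcacatgatgtggc
CWC25 probe: ccagtgagtcaactcttcacatgaGgtggc
MTMR2 probe: ccagtgagtcaGTtcttcacatCaGgtgCc
MBL2 probe: cAaAtgagtcaGctctCcacatCaGgtggc

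Most subunit probes were close to the background of the array. A probe counted as well above background on an array when the scanner software marked it so, and 7 of the 13 probes had this mark on no array, 3 on all 4 and 3 on some. Per array, 4, 4, 6 and 4 probes had it (high-fertile pools 1 and 2, then low-fertile pools 1 and 2). A probe entered the test when it had the mark on both arrays of a group, as 4 probes of 3 genes did: both CHRNA1 probes, CHRNA3 probe 2 and the CHRNB2 probe. The plot of signals by array shows each probe.

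**Figure D1:**
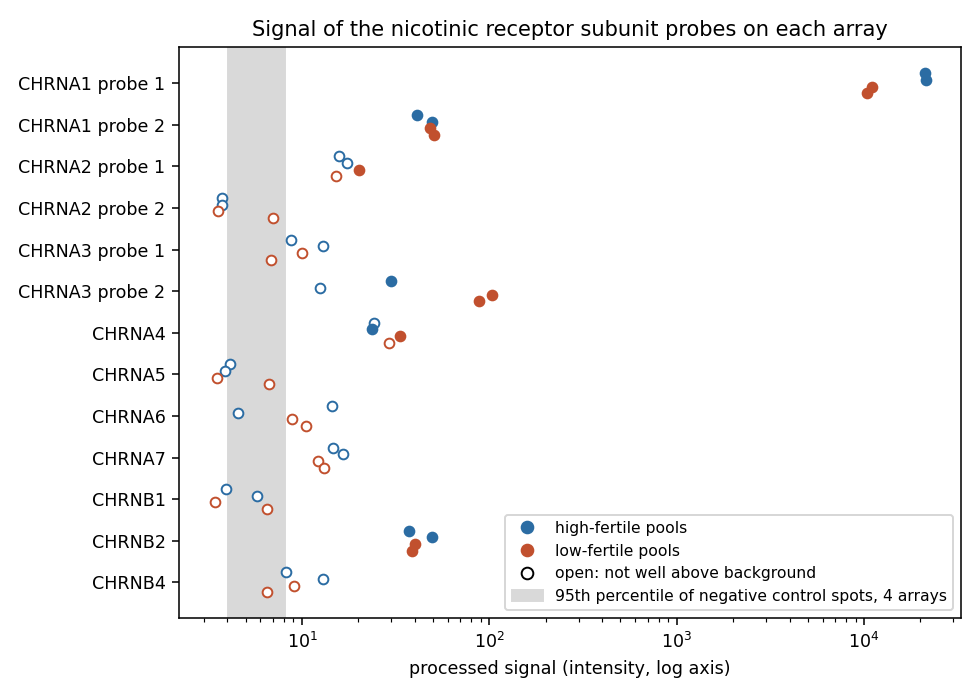
Processed signal (intensity, log axis) of each of the 13 subunit probes on each array. Blue points are high-fertile and red points low-fertile pools, open points were not well above background, and the grey band spans the 95th percentile of negative control spots on the 4 arrays (4.02 to 8.09). CHRNA3 probe 2 was at 87.5 to 103 in low-fertile and at 12.4 to 29.7 in high-fertile pools.

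CHRNA3, the alpha subunit of ganglionic receptors, had readings that differed between its probes. Probe 2 gave processed signals of 29.7 and 12.4 for high-fertile pools 1 and 2, and of 103 and 87.5 for low-fertile pools 1 and 2, so both low-fertile pools lay above both high-fertile pools. The low-fertile mean was 2.39 higher on the normalized log2 scale (standard error 0.637 from the spread of its own pools, and 0.408 as moderated by limma over all tested probes, n = 2 per group), a 5.24-fold difference. In the high-fertile group, 1 of 2 arrays had this probe well above background. The SD between pools was 0.900 on the log2 scale in the high-fertile and 0.0376 in the low-fertile group. Fewer cells of a type and less RNA per cell cannot be told apart in such pools. With normexp background correction the difference was 0.89, and it was 3.03 or 1.75 without the first or the second high-fertile pool.

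Probe 1 of CHRNA3 lacked the mark on all 4 arrays. It read 8.74 and 12.9 in high-fertile, and 9.95 and 6.84 in low-fertile bulls, and the groups overlapped. Its low minus high difference was -0.28, opposite in sign to that of probe 2. In log2, probe 2 exceeded probe 1 by 1.77 and -0.05 on the high-fertile arrays, and by 3.37 and 3.68 on those of low-fertile bulls, which describes the arrays and sets no level of one probe against the other. The median over both probes of the gene was a low minus high difference of 1.06. The spots around CHRNA3 probe 2 were also compared between arrays: the median residual of its 6 nearest sample spots was -0.19 and -0.67 on the high-fertile arrays, and 0.31 and 0.19 on those of low-fertile bulls.

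CHRNA1, the alpha subunit of the muscle receptor, also had probes that differed. Probe 1 read 21042 and 21287 in high-fertile bulls, against 11016 and 10400 in low-fertile bulls, with no overlap. Its signal fell by 0.90 on the log2 scale in low-fertile bulls (standard error 0.142, 1.86-fold, adjusted p = 0.00970, limma over all tested probes). The adjusted p was 0.0526 without the first and 0.0544 without the second high-fertile pool, and 0.165 with no filter on dim probes. Probe 2, whose start lay 203 bases from that of probe 1 at chr2:22741647-22741706, had 41.1 and 49.5 against 48.3 and 50.7. Here the groups overlapped, at a difference of 0.22 (standard error 0.175, limma adjusted p = 0.385).

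CHRNA1 probe 1 matched 11 probes named for 7 other genes in the opposite orientation, by an alignment of all probe sequences made after its values were seen. The matches ran over 36 to 56 bases at 80.4% to 97.4% identity. None of the 11 lacked the mark on any array. For each of them the low-fertile pools lay above the high-fertile pools, by 0.43 to 0.97 on the log2 scale (median 0.58). Among all tested probes, the groups did not overlap for 69.1%. Of the 11 probes 6 passed the limma test, beside 26.8% of all tested probes called and 9.22% called higher. Several of the 11 share a gene name and all match the same probe, so they are not separate readings. CHRNA1 probe 1 went the other way. The array design also assigns CHRNA1 probe 1 to RefSeq transcripts of SSLP1, SP140L and LIX1 besides that of CHRNA1. Whether the signal of CHRNA1 probe 1 comes from CHRNA1 RNA was not tested.

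**Figure D2:**
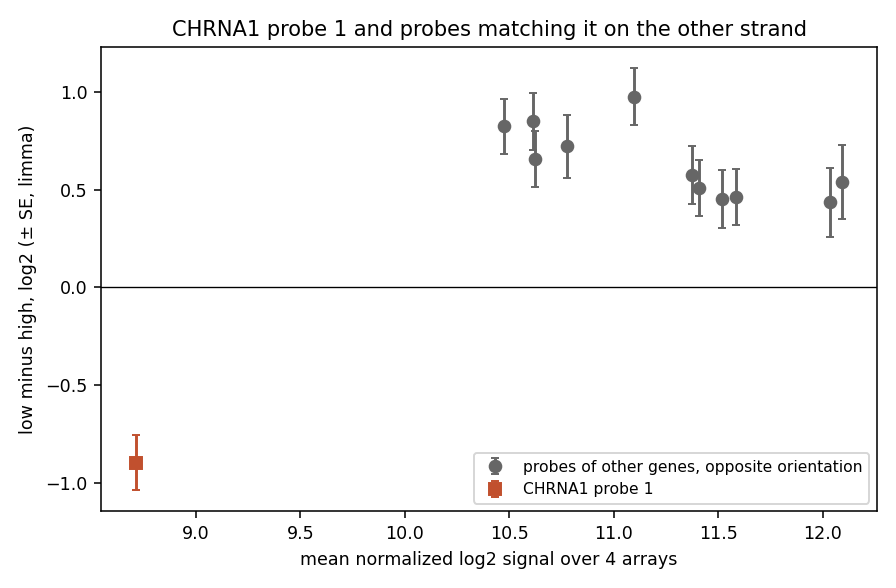
Low minus high difference (log2, ± standard error of limma) against the mean normalized log2 signal over 4 arrays, for CHRNA1 probe 1 (square) and the 11 probes of other genes that match it in opposite orientation (circles). The circles lie between 0.43 and 0.97 and the square at -0.90.

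CHRNB2, which pairs with CHRNA4 in brain receptors, had the mark on all 4 arrays. It read 37.4 and 49.4 in high-fertile, against 40.0 and 38.7 in low-fertile bulls, a difference of -0.04 (standard error 0.185, adjusted p = 0.886, limma). Another probe with the same 60 bases, listed under a transcript name, read 42.2 and 46.3 against 44.0 and 38.5, a difference of -0.02. Both probes had overlapping groups.

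CHRNA4 was at the edge of detection. It read 24.2 and 23.7 in high-fertile, against 33.3 and 29.1 in low-fertile bulls. The groups did not overlap, with a difference of 0.46, but the mark was present on 1 array of each group and the probe was not tested. A probe listed under a transcript name shares 59 of its bases and read 24.9 and 20.9 against 27.8 and 19.4, where the groups overlapped (difference 0.11, standard error 0.189).

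For CHRNA2, probe 1 was well above background on the first low-fertile array alone, with 15.7 and 17.3 in the high-fertile and 20.1 and 15.2 in the low-fertile pools, and probe 2 on none. CHRNA5, CHRNA6, CHRNA7, CHRNB1 and CHRNB4 had the mark on no array. CHRNA7, the subunit of homomeric channels, read 14.6 and 16.6 against 12.1 and 13.1. CHRNA6 read 14.4 and 4.52 against 8.86 and 10.5. The differences of these 2 were -0.22 and 0.34 on the log2 scale, and after scaling each overlapped between the groups. The ganglionic partners of CHRNA3, which lie beside it on chromosome 21, also overlapped: CHRNA5 read 4.12 and 3.86 against 3.53 and 6.66 (difference 0.37). CHRNB4 read 8.22 and 13.0 against 9.05 and 6.48 (difference -0.35). CHRNB1, the beta subunit of the muscle receptor, read 3.93 and 5.73 against 3.42 and 6.47 (difference 0.07). Probe 2 of CHRNA2 read 3.75 and 3.76 against 3.56 and 7.0 (difference 0.50), and shares 36 bases with a probe of PTK2B in opposite orientation. None of these probes entered the test, so neither a difference nor its lack is shown, and absence of the transcripts is not shown.

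Over the 11 probes of the other subunits, 7 had a higher and 4 a lower low-fertile mean. The differences ran from -0.90 to 0.50 with a median of 0.17, beside a median of 0.12 over all 51282 probes. Of the higher ones, CHRNA2 probe 2 (0.50), CHRNA5 and CHRNB1 read all or mostly surrogate values, set by the scanner software for signals too low to measure. The floor was highest on the second low-fertile array (median negative control signal 6.36, against 3.35 to 3.95 on the others). The direction of these probes is therefore not a measured one. The groups did not overlap for 2 of the 11, CHRNA1 probe 1 and CHRNA4, beside 49.0% of all probes. Of the 3 tested probes of other subunits, 1 passed an adjusted p of 0.05, CHRNA1 probe 1, which was lower. Among all 21033 tested probes 26.8% passed, 9.22% higher and 17.6% lower in low-fertile bulls, so 1 of 3 was near the share of all probes. Of all the probes called, 34.4% were higher, 7.89% when the arrays were scaled on spike-in probes, a scaling that moved the median of the tested probes to -0.38, and 62.5% when the mark was required on all 4 arrays. CHRNA3 probe 2 was above the median of the brightest probe of the other 9 subunits (0.07) by 2.32. That median is the value of the CHRNB1 probe, which was well above background on no array. The probe was above the median of the tested ones (CHRNA1 and CHRNB2, -0.47) by 2.86. This second median rests on CHRNA1 probe 1 at -0.90, while CHRNA1 probe 2 was at 0.22. Both distances are a description and carry no test.

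**Figure D3:**
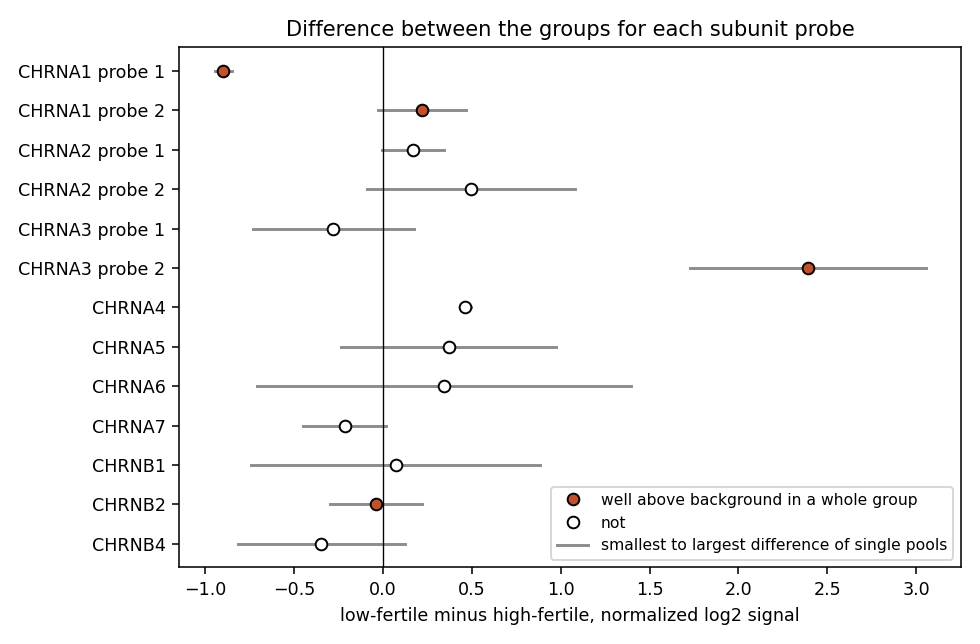
Low minus high difference in normalized log2 signal for each subunit probe; grey lines run from the smallest to the largest difference between single pools of the groups. Filled points were well above background on both arrays of a group. CHRNA3 probe 2 lies at 2.39, and the probes of the other subunits lie between -0.90 and 0.50.

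Of 6 further nicotinic subunit genes on the array, 4 were tested and 0 passed in limma (1 at an unadjusted p under 0.05). CHRNE, of the adult muscle receptor, had a difference of 0.59 (adjusted p = 0.0685), CHRNB3 of 0.35, CHRNA10 of 0.21 and CHRNG, of the fetal muscle receptor, of 0.19. Of the muscarinic receptors, which signal through G proteins, 4 of 5 were tested and 0 passed (1 unadjusted). Of the genes of acetylcholine synthesis, transport and breakdown, 2 of 7 were tested and 0 passed (0 unadjusted). These were ACHE, the acetylcholine-degrading esterase, at 0.01, and COLQ, its collagen tail, at -0.28 (adjusted p = 0.195).

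Genes that assemble or anchor receptors gave 10 tested genes of 15 listed, with 1 higher and 2 lower. Both lower genes entered the test only through the high-fertile arrays, where they were high, so their calls are no independent support for a fall. LYPD1, a Ly6 protein that binds nicotinic receptors, had signals of 32.6 and 38.1 in the high-fertile and 21.1 and 9.25 in the low-fertile pools. It fell by 1.25 in log2 (standard error 0.340, adjusted p = 0.0471, limma), and 1 low-fertile array had it well above background. AGRN, the nerve-derived organizer of the neuromuscular junction, had 21.1 and 23.8 against 13.0 and 10.1. Neither low-fertile array had it well above background, and the estimated fall was 1.84-fold (adjusted p = 0.0137, limma). LYNX1, a Ly6 brake on receptors, had 54.9 and 55.5 against 79.0 and 72.2, upregulated by 0.54 (standard error 0.140, adjusted p = 0.0410, limma). The methods' t-test gave 0 adjusted calls on these lists and over all probes. Together the cholinergic lists held 20 tested genes, of which 1 was higher and 2 lower, with a median of -0.07, beside 26.8% of all tested probes called. The count of 3 was 0 to 2 with a pool left out, 8 with spike-in scaling and 1 with the mark required on all 4 arrays. SLURP1, a secreted Ly6 protein singled out after its values were seen, read 2496 in the second high-fertile pool and 104 to 115 in the other 3, and did not pass (adjusted p = 0.258).

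Among 28 genes of the other Cys-loop channels (GABA, glycine and serotonin receptors and the zinc-activated channel ZACN), 12 were tested, 5 were lower and 1 was higher, beside 17.6% and 9.22% of all tested probes. The lower ones, named after their values were seen, were GABRA2, GABRB1, GABRG1, GABRG3 and HTR3B. All but GABRB1 entered the test only through the high-fertile arrays, where they were high, so the count is no support for a fall of the list. GABRB1 had signals of 205 and 218 in the high-fertile and 81.9 and 75.6 in the low-fertile pools, and fell by 1.34 (standard error 0.142, adjusted p = 0.00368, limma). The higher one was GLRB, the beta subunit of the glycine receptor, by 0.60 (adjusted p = 0.0331, limma) at the brightest of its 4 probes. The paper lists GLRB in a downregulated pathway, as it does GABRA2, GABRB1, GABRG1 and GABRG3, so for GLRB the direction differs.

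Of the tested genes near CHRNA3, 0 were called higher and 1 lower, beside 9.22% and 17.6% of all tested probes. They are too few to read these counts as a result. Within 500 kb on HGSC Btau_3.1 lay 11 named genes that are not subunits, of which 3 were tested. FBXO22, an F-box protein, was lower by 1.15 in log2 (standard error 0.204, adjusted p = 0.0133, limma), and ACSBG1 and CRABP1 had differences of 0.17 and 0.25 with adjusted p of 0.414 and 0.291. By the smallest Euclidean distance over the 4 normalized log2 values, the most similar of 8849 genes were CACNA1I (0.865), FKBP15 (0.951) and CIST1 (1.17). This is a description over 4 arrays and gives no link between the genes.

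Markers of other cell types are given beside these values, and their counts stand beside 9.22% higher and 17.6% lower among all tested probes. Of 6 neuron markers all were tested and 2 were higher in low-fertile bulls, PRPH by 1.84 (adjusted p = 0.00316, limma) and SYP by 0.75 (adjusted p = 0.0358), while the summed signal of the list was 800 to 805 in the high-fertile and 1245 to 1253 in the low-fertile pools. Most of the gap between these sums came from PRPH, and SNAP25 and RBFOX3 had differences of -0.27 and -0.44 (adjusted p = 0.198 and 0.0739). Those of muscle gave 1 higher (DES by 0.69) and 1 lower (TNNT3) of 4 tested, with sums of 288 to 290 and 291 to 339. The leukocyte list gave 1 higher of 8 tested, PTPRC by 0.78, with sums of 21788 to 22555 and 28548 to 29692. Most of these sums came from PTPRC and LYZ, and CD4 had a difference of -0.46 (adjusted p = 0.121). Epithelial markers had 0 of 5 passing in limma (0 unadjusted). Red cell markers gave 1 higher of 2 tested, HBB. TNNT3 and HBB entered the test only through the group where they were high, so their calls are no independent support for a change. The list of sperm transcripts gave 1 higher of 7, PRM1 by 0.67, where the median of the tested sperm genes was 0.03. The part of other cells in the CHRNA3 and CHRNA1 values was not tested.

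**Figure D4:**
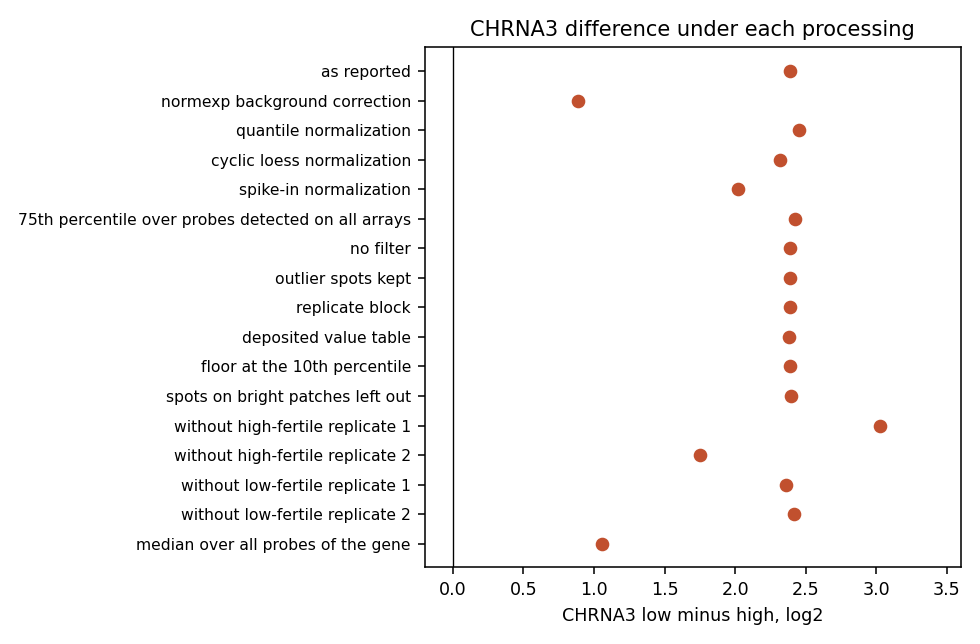
Low minus high difference of CHRNA3 (log2) for the brightest probe, or the median of both probes in the lowest entry, under each processing. The values run from 0.89 with normexp background correction to 3.03 without the first high-fertile pool, all above 0.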

How the data were processed

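RNA pooled from high-fertile bulls (2 pools) and low-fertile bulls (2 pools) was hybridised to 1-colour Agilent Bos taurus arrays, with 1 array per pool. The authors deposited intensity files of Agilent Feature Extraction 11.5.1.1 (per the file headers), whose processed signals are background-subtracted, and a table of log2 values that the authors had shifted to the 75th percentile. Here, processed signals of spots not marked as outliers were averaged by probe in log2, minus the 75th percentile of each array. Surrogate values, which the software sets for signals too low to measure, were kept. Probes with the scanner's mark for well above background (on a share of at least 0.5 of their spots) on both arrays of a group were tested with limma 3.58.1 in R 4.3.3, with Benjamini-Hochberg adjustment over all 21033 of them, and called at an adjusted p of 0.05. Standard errors are limma's moderated ones unless stated. A gene on a list was represented by its brightest probe. Probe sequences were aligned with BLAST 2.17.0 (E of at most 0.001).

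The members, lists and rules were chosen with earlier results of these data known. Named were every member probe, cholinergic list genes past the threshold (at most 6 per direction), tested genes within 500 kb of CHRNA3, and the 3 genes nearest it in pattern. Pool numbers 1 and 2 occur in both groups but do not pair the samples (r = 0.00548 between deviations over 21024 probes). Alternatives changed the background correction, scaling, filter, outlier and patch spots, floor, replicate block, pool left out, probe summary and test. The script was tested on simulated data. With 2 pools per group the number of arrays limits the precision, and p-values measure the spread between pools. Gene names are those of the array design; 12 of the 13 member probes carry a RefSeq accession listed for the same gene and 1 an Ensembl transcript.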

Additional observations from a re-analysis of the deposited data

How the results depend on the processing

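The difference of CHRNA3, by its brightest probe or the median of both, stayed above 0 under the 16 alternatives that gave a value, while its dimmer probe alone was at -0.28. The size did not hold: 0.89 with normexp, 1.06 as the median of both probes, and 1.75 to 3.03 with a pool left out (3.03 without high-fertile pool 1, 1.75 without high-fertile pool 2). Its distance from the other subunits was 0.850 with normexp, 0.984 as the median, and 1.60 to 3.22 with a pool left out. The filter requiring all 4 arrays leaves no value, since 1 high-fertile array is not above background.

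The count of other subunit probes past the threshold, 1, became 0 without a filter (1 at an unadjusted p under 0.05, none of the 51282 probes adjusted) and 0 in the methods' t-test (1 unadjusted), and 0 to 1 with a pool left out, 0 without either high-fertile pool. CHRNA1 probe 1 stayed lower under all 17 alternatives, by 0.85 to 1.27, with adjusted p from 0.000275 to 0.165. The 3 cholinergic genes became 5 with normexp, 8 with spike-in scaling, 1 with all arrays required, 0 without a filter (3 unadjusted), 0 in the t-test (6 unadjusted), and 0 to 2 with a pool left out. CHRNA1 probe 2 turned to -0.0071 with normexp and -0.15 with spike-in scaling. CHRNB2 turned to 0.039 with normexp, was -0.41 with spike-in scaling (adjusted p = 0.134), and ran from -0.23 to 0.15 with a pool left out (0.15 when high-fertile pool 2 was dropped, and 0.03 when low-fertile pool 1 was). The count of probes that pass the detection filter rose from 4 to 10 with the positive-and-significant mark, and was 4 with outlier spots left out of the mark, which was added once the data had been seen (the count of 4 keeps them). The causes were not tested.

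With the replicate block, the counts were 1 subunit probe and 2 cholinergic genes, and the adjusted p of CHRNA1 probe 1 was 0.0155. No call of a subunit probe changed under it. Of the 13 probes, 3 were well above background on all 4 arrays: both of CHRNA1 and that of CHRNB2. Signals near background limit what can be read from the rest, CHRNA3 probe 2 included.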
